A study of Mus musculus with 11 samples.

Results

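The effect of adding aspirin to triptolide was examined in mouse lung by setting the 3 arrays of lungs given both drugs (combination 1, 2 and 3) against the 3 arrays of lungs given triptolide alone. These are 6 of the 11 arrays in the study. All autosomal genes were compared, which were 19163 of the 19938 genes named by exactly 1 symbol, each read from its row with the highest mean. The study addressed the suppression of lung cancer development by the drugs and profiled lung tissue of 129S1 mice, an inbred strain. The combination group received aspirin at 4 mg per kg body weight and triptolide at 1 mg per kg, the triptolide group 1 mg per kg of that drug alone, and the aspirin group 4 mg per kg of aspirin alone. Dosing was by gavage, 5 days a week over 2 months, in PBS. The 2 remaining arrays carry the title untreated control, while the protocol speaks of PBS buffer. No label gives sex, age or whether the lungs held tumours, and none says that the 3 samples of a group came from separate animals, so p-values measure the spread between these samples only.

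Aspirin acetylates the cyclooxygenases, the enzymes that make prostaglandins and thromboxane from arachidonic acid. Triptolide, a diterpenoid of the thunder god vine, binds Ercc3, the DNA-unwinding subunit of the transcription factor TFIIH, and blocks the start of transcription by RNA polymerase II. The lung's gas exchange surface is built from thin alveolar type 1 cells, surfactant-making type 2 cells and a dense capillary endothelium, while its airways are lined by ciliated and secretory cells.

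The arrays carried lung transcripts at high level: Sftpc, a surfactant protein of type 2 cells, averaged 13.91 in the combination group and 14.16 in the triptolide group on the deposited log2 scale, and Scgb1a1, the secretoglobin of club cells, averaged 13.96 in the combination group and 14.01 in the triptolide group. Combination 1 stood apart. On the first principal component of the autosomal genes, which held 46.2% of the variance, it scored 59.3, while the other 10 arrays lay between -14.3 and 6.3. The arrays also differed in sex-linked transcripts. The mean of Kdm5d, Uty and Eif2s3y, genes of the Y chromosome, was 6.30, 5.67 and 6.73 on combination 1, 2 and 3, against 6.55, 9.36 and 9.08 on triptolide 1, 2 and 3. Xist, the RNA that silences 1 X chromosome in females, read 12.26, 12.80 and 12.31 with the combination and 12.32, 9.75 and 6.61 with triptolide. Triptolide 2 thus joined an Xist level between those of triptolide 1 and 3 to the highest Y-linked mean. The labels do not explain this, and its cause was not tested. Only triptolide 1 resembled the combination arrays in the sex-linked genes, so many of the list medians and genes below are also given without combination 1 and against triptolide 1 alone. These are separate comparisons: the one against triptolide 1 alone keeps combination 1, and the one without combination 1 keeps triptolide 2 and 3. No list median or gene difference below makes both changes together. What the sex-linked difference contributes to any of these values was not tested, and in the comparison of all 6 arrays it cannot be told apart from the aspirin difference for triptolide 2 and 3.

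No autosomal gene passed the test of the combination against triptolide: limma called 0 genes, or 0% of those tested, at an adjusted p under 0.05, and the smallest adjusted p was 0.353. Without combination 1 the count was again 0, or 0%, with a smallest adjusted p of 0.419. None of the genes named below therefore passed, and their differences are given as values. At an unadjusted p under 0.05 there were 2593 genes, where 958 would be counted if p were uniform. Of these, 667 lay higher with the combination, 3.48% of the genes tested, and 1926 lay lower, 10.1%. The groups did not overlap for 1594 genes that were higher on all 3 combination arrays, 8.32%, and for 1842 that were lower, 9.61%. Over all autosomal genes the median log2 difference was 0.02. Single arrays moved these counts: without combination 3 the test called 24 genes and without triptolide 1 it called 1, while without triptolide 2 the genes at an unadjusted p under 0.05 numbered 181 higher and 859 lower. With the Y-linked level in the fit they numbered 31 and 56, where the slope for that level rested largely on triptolide 1 against triptolide 2 and 3. Array weights called 4785 genes in a fit that did not converge and gave aspirin 3 a weight of 43.46, although leaving out combination 1 altogether called 0.

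To ask which genes hold without combination 1, a gene was counted as holding if its unadjusted p was under 0.05 with the same sign in both fits, a criterion chosen after it was seen that none passed the adjusted one. Of the 667 higher genes 308 held, or 46.2%, and of the 1926 lower genes 769 held, or 39.9%. The numbers of list members that held, given below, are to be set against these shares. In the fit without combination 1 itself, 719 genes lay higher at that threshold, 3.75%, and 955 lay lower, 4.98%. Both fits share 5 of the 6 arrays, so the share that held is a description and no independent check. The lower genes shrank more: their median difference was -0.35 with all arrays and -0.23 without combination 1, against 0.29 and 0.27 for the higher genes. Conversely, 411 higher and 186 lower genes came under the threshold only when combination 1 was left out. Against triptolide 1 alone, the holding genes had medians of 0.20 and -0.29 in place of 0.32 and -0.41, and in the fit without triptolide 2 and 3 only 39 higher and 66 lower genes met the same criterion.

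**Figure D1:**
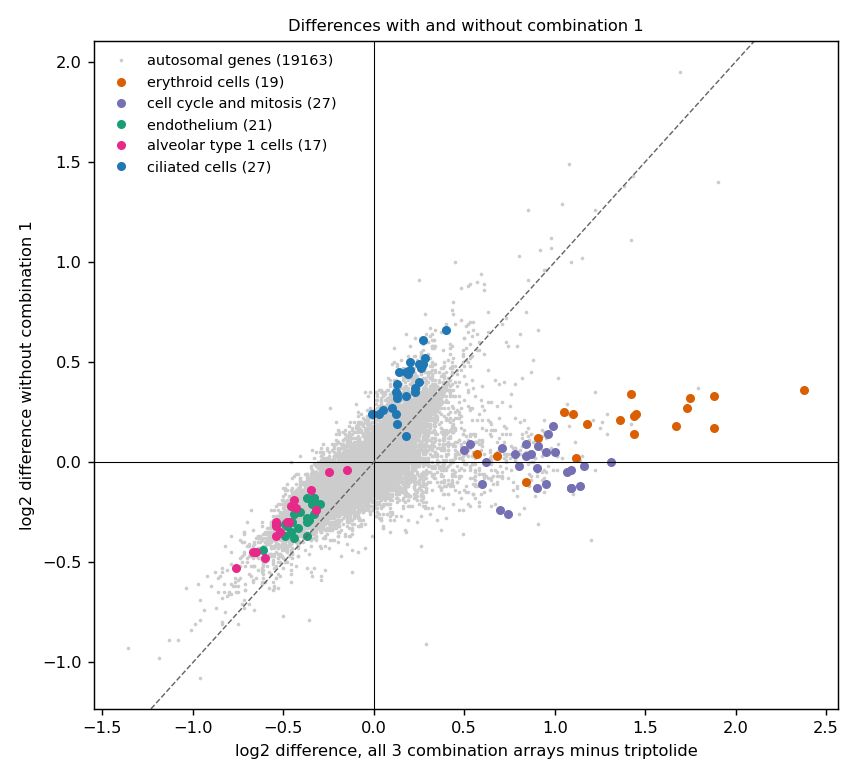
Each grey point is 1 of the 19163 autosomal genes, placed by its log2 difference, combination minus triptolide, over all 6 arrays (x axis) and without combination 1 (y axis); coloured points are members of 5 gene lists and the dashed line marks equality. Erythroid and cell cycle genes lie far right and near 0 on the y axis, endothelial and alveolar type 1 genes lie low on both axes, and ciliated cell genes lie above the line.

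General endothelial markers lay lower with the combination as a group. All 21 measured members of the list of general endothelial markers were lower, all 21 at an unadjusted p under 0.05 against 10.1% of all genes, and 15 had no overlap between the groups, against 9.61%. Their median difference was -0.41, and it was -0.30 without combination 1, where 13 members held, and -0.27 against triptolide 1 alone. Fewer endothelial cells and less RNA per cell cannot be told apart in whole lung, here or for the other cell types below. The mean level of the list, relative to its mean over the 11 arrays, was -0.67, -0.39 and -0.20 on combination 1, 2 and 3, against -0.13, -0.08 and 0.18 on triptolide 1, 2 and 3. Every combination array lay below every triptolide array, though the distance between combination 3 and triptolide 1 was small. The arrays without triptolide stood at 0.25, 0.21 and 0.17 with aspirin alone, against 0.38 and 0.28 in untreated control, and triptolide 3 lay among the aspirin arrays.

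Esam, an adhesion molecule of endothelial tight junctions, read 10.68, 11.08 and 11.31 with the combination, against 11.47, 11.68 and 11.75 with triptolide. Its difference was -0.61 ± 0.14 (log2 ± SE of the limma fit, here and below; unadjusted p = 0.00125), and -0.44 without combination 1 (unadjusted p = 0.00151). Cdh5, the VE-cadherin that joins endothelial cells, read 11.84, 12.14 and 12.29 with the combination, against 12.51, 12.47 and 12.77 with triptolide, a difference of -0.49 ± 0.13, which was -0.37 without combination 1 and -0.42 against triptolide 1 alone. Both genes were lowest on combination 1 and stayed below the triptolide arrays on combination 2 and 3. Pecam1, a junction protein of endothelium and platelets, differed by -0.42 ± 0.11, or -0.33 without combination 1 and -0.39 against triptolide 1 alone. Flt1, a receptor for vascular endothelial growth factor, differed by -0.46 ± 0.12, or -0.35 and -0.30 in the same comparisons. Of 9 markers of lung capillaries, all 9 were lower, with 6 at an unadjusted p under 0.05, against 10.1% of all genes. Of these 3 held, a share near the 39.9% of all lower genes under the threshold. Their median was -0.40, -0.29 without combination 1 and -0.30 against triptolide 1 alone. Car4, a carbonic anhydrase on the capillary surface, read 11.05, 11.57 and 11.61 with the combination, against 11.91, 12.09 and 12.17 with triptolide. Its difference of -0.65 ± 0.14 became -0.47 without combination 1 (unadjusted p = 0.000477) and -0.50 against triptolide 1 alone. Arterial and Notch pathway genes were lower in 11 of 11, with 5 at an unadjusted p under 0.05, against 10.1% of all genes. Of these 2 held, again a share near 39.9%. Their median of -0.24 was -0.15 without combination 1 and -0.20 against triptolide 1 alone. The ephrin Efnb2 differed by -0.41 ± 0.11, or -0.31 and -0.36 in those comparisons. Venous and lymphatic markers were less even: 6 of 8 were lower and 2 higher. Of the lower ones 2 were at an unadjusted p under 0.05, against 10.1% of all genes, and none held. Their median was -0.25, -0.06 without combination 1 and -0.27 against triptolide 1 alone. Genes of BMP signalling, a growth factor pathway that maintains endothelium, were lower in 13 of 13, with 8 under the threshold, against 10.1% of all genes, and 6 holding. Their median was -0.36 with all arrays but -0.18 both without combination 1 and against triptolide 1 alone. The receptor Bmpr2 differed by -0.40 ± 0.13, or -0.27 without combination 1 and -0.30 against triptolide 1 alone. The ligand Bmp4 differed by -0.66 ± 0.22, or -0.41 and -0.32 in those comparisons. Bmp2, another ligand, differed by -0.58 ± 0.19, or -0.55 and -0.22. Id1, a target of both, differed by -0.42 ± 0.14, or -0.25 and -0.24, and the groups overlapped for Id1 and Bmp4.

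ETS factors bind a GGAA core in many endothelial promoters, so the stretches before the start sites of 2 list members, chosen after their values were seen, are shown with the letters CAGGAAG, read on either strand, in capitals. The sequences are RefSeq's (GRCm38.p6), the last 120 bases before the start, for Egfl7 at chr2:26580963-26581082 on the plus strand, the first of its 3 starts in the table, and for Robo4 at chr9:37401852-37401971 on the plus strand.
Egfl7: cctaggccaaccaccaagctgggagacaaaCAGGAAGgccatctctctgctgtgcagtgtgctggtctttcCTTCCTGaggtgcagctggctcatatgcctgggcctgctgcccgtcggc
Robo4: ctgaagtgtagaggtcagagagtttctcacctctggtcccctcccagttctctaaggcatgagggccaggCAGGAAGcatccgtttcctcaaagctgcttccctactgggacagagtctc
Over the 250 bases before the start, 5 of the 12 endothelial members with a promoter in the table held this motif, against 10.8% of all 32851 promoters. A gene counted if any of its promoters held it, while the 10.8% counts single promoters, so the shares are not like for like. The match describes these letters and shows no binding. Egfl7, a secreted matrix protein of endothelium, read 10.86, 11.45 and 11.37 with the combination, against 11.44, 11.50 and 11.84 with triptolide, and differed by -0.37 ± 0.16. Robo4, an endothelial guidance receptor, read 9.38, 9.59 and 9.71 with the combination, against 9.71, 9.87 and 10.01 with triptolide, and differed by -0.30 ± 0.11. In both genes the groups touched or overlapped, and neither held without combination 1 (unadjusted p = 0.186 for Egfl7 and 0.0567 for Robo4).

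Markers of alveolar type 1 cells were the second group to lie lower. All 17 measured members were lower with the combination, 15 of them at an unadjusted p under 0.05, against 10.1% of all genes, and 12 with no overlap, against 9.61%. Their median was -0.48. Without combination 1, 13 of the 15 held and the median was -0.30, and against triptolide 1 alone all 17 were lower with a median of -0.41. Aqp5, the water channel of type 1 cells, read 10.57, 11.21 and 11.23 with the combination, against 11.51, 11.88 and 11.63 with triptolide. Its difference was -0.67 ± 0.16, and -0.45 without combination 1 (unadjusted p = 0.00127). Gprc5a, an orphan receptor enriched in lung epithelium, read 11.05, 11.46 and 12.05 with the combination, against 12.14, 12.43 and 12.27 with triptolide, a difference of -0.76 ± 0.21, or -0.53 without combination 1. Hopx, a homeodomain cofactor of type 1 cells, differed by -0.52 ± 0.15, or -0.35 without combination 1. Igfbp2, a binding protein of insulin-like growth factors, differed by -0.60 ± 0.16, or -0.48 without combination 1. The list stood at -0.78, -0.36 and -0.07 on combination 1, 2 and 3, against 0.00, 0.07 and 0.17 on triptolide 1, 2 and 3, so that combination 3 lay close to triptolide 1.

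Markers of alveolar type 2 cells were lower in 17 of 18, with 13 at an unadjusted p under 0.05, against 10.1% of all genes, and 8 of these held. Their median of -0.54 was -0.34 without combination 1 and -0.48 against triptolide 1 alone. Etv5, an ETS factor that maintains type 2 cells and a target of FGF signalling, read 9.91, 10.28 and 10.44 with the combination, against 10.78, 11.33 and 10.84 with triptolide. It differed by -0.77 ± 0.18 (unadjusted p = 0.00115), by -0.62 without combination 1 and by -0.57 against triptolide 1 alone. Lpcat1, which makes the main surfactant lipid, differed by -0.53 ± 0.15, or -0.48 without combination 1 and -0.39 against triptolide 1 alone. The protease Napsa, which processes surfactant protein B, differed by -0.62 ± 0.19, or -0.49 and -0.54 in those comparisons. The chemokine Cxcl15 differed by -0.73 ± 0.24, or -0.40 and -0.58. All 3 lay lower on every combination array than on any triptolide array. The list level was -0.79, -0.08 and -0.03 on combination 1, 2 and 3, against 0.17, 0.53 and 0.04 on triptolide 1, 2 and 3. Combination 2 and 3 thus stood just under triptolide 3, and the highest array was triptolide 2. Aspirin alone stood at -0.21 (median of the members) against untreated control.

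Feedback genes of the MAPK pathway and ligands of the EGF receptor, which report growth factor signalling, were lower in 18 of 19. Of these, 11 were at an unadjusted p under 0.05, against 10.1% of all genes, 10 had no overlap, against 9.61%, and 6 held, with a median of -0.45 over all arrays and -0.31 without combination 1. Dusp6, a phosphatase that switches off ERK, read 10.14, 10.40 and 10.67 with the combination, against 10.86, 11.28 and 11.16 with triptolide, a difference of -0.69 ± 0.17, or -0.56 without combination 1. Spry1 and Spred2, inhibitors of the pathway, differed by -0.53 ± 0.15 and -0.37 ± 0.11, and by -0.37 and -0.19 against triptolide 1 alone. Hbegf, a ligand of the EGF receptor, differed by -0.45 ± 0.14, but by -0.16 against triptolide 1 alone. Against triptolide 1 alone the list median was -0.18, and the list level was -0.02 on triptolide 1 and 0.44 on triptolide 2. Leaving out triptolide 2 brought the median to -0.27.

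Mesothelial genes, which mark the covering of the lung surface, were lower in 12 of 12, with 6 at an unadjusted p under 0.05, against 10.1% of all genes, and the 6 also held. The median was -0.62, -0.41 without combination 1 and -0.75 against triptolide 1 alone. Upk1b, a membrane tetraspanin, read 9.12, 9.81 and 10.05 with the combination, against 10.42, 10.42 and 10.58 with triptolide. Its difference was -0.81 ± 0.19, and -0.54 without combination 1 (unadjusted p = 0.000194). Upk3b, another uroplakin of mesothelium, read 9.26, 10.41 and 9.37 with the combination, against 10.91, 10.83 and 10.88 with triptolide, and differed by -1.19 ± 0.34. Combination 2 was the nearest to triptolide for Upk3b, whereas combination 3 was for Upk1b. Aldh1a2, which makes retinoic acid, differed by -0.94 ± 0.27, or -0.74 without combination 1 and -0.87 against triptolide 1 alone. The list level on the combination arrays was -0.73, 0.02 and -0.49, against 0.22, 0.18 and 0.19 on the triptolide arrays, and it also varied among the aspirin arrays, from -0.21 to 0.46.

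**Figure D2:**
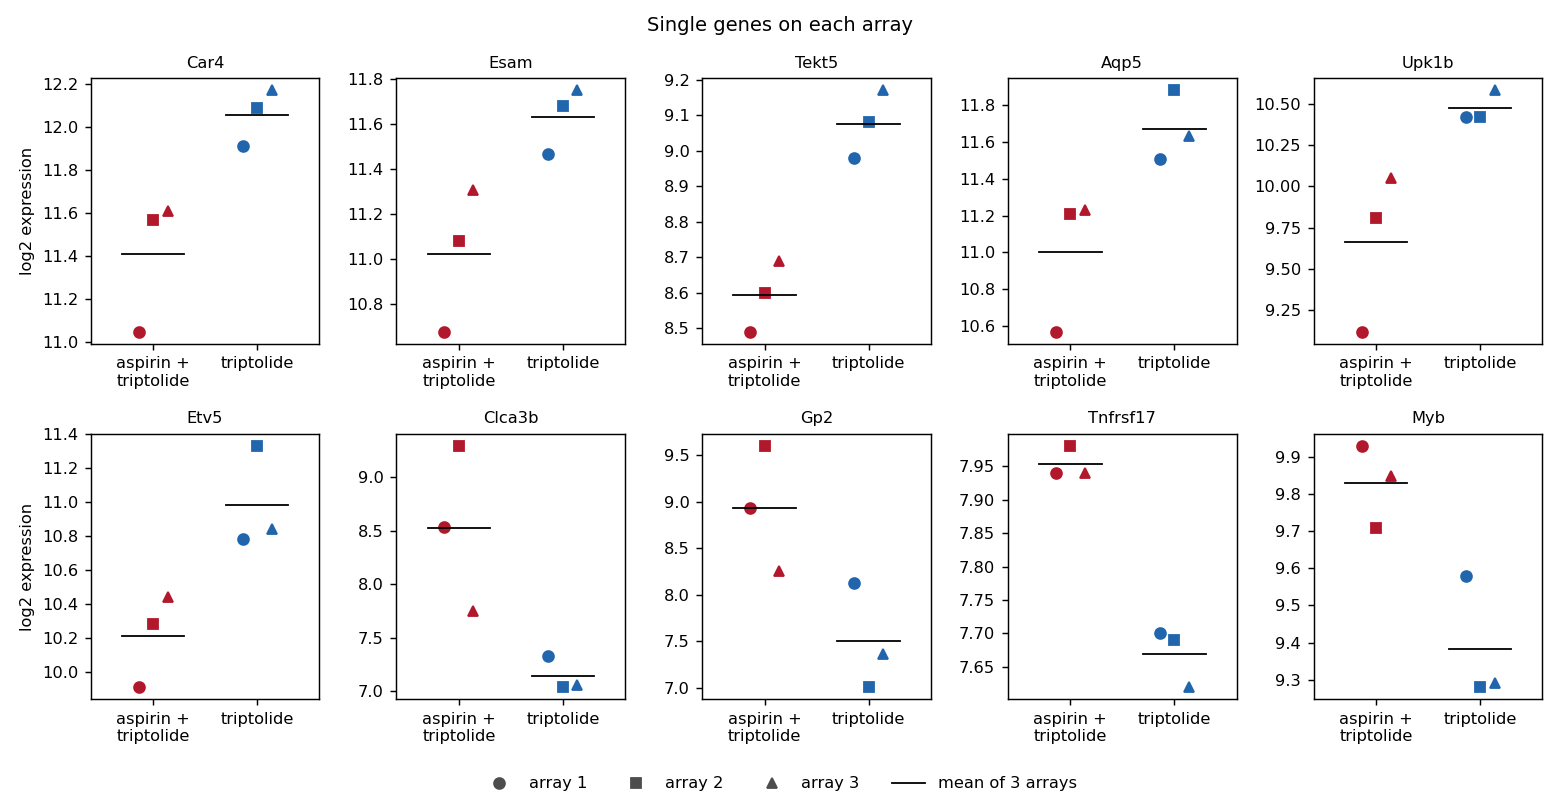
Log2 expression of 10 genes on each combination array (red, left) and triptolide array (blue, right); the symbol gives the array number and the line the mean of 3 arrays, and each panel has its own axis. Car4, Esam, Tekt5, Aqp5, Upk1b and Etv5 are lower on all 3 combination arrays, and Clca3b, Gp2, Tnfrsf17 and Myb are higher on all 3, with no overlap.

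The genes with the smallest p among those that lay lower were Tekt5, Fgf18, Col12a1, Myrf and Pde4b, and all 5 held without combination 1. Tekt5, a tektin of sperm flagella, had the smallest p of all: it read 8.49, 8.60 and 8.69 with the combination, against 8.98, 9.08 and 9.17 with triptolide. It differed by -0.48 ± 0.08 (unadjusted p = 0.000127, limma adjusted p = 0.353), and by -0.43 without combination 1. Fgf18, a growth factor of lung development, read 8.45, 8.66 and 8.61 with the combination, against 8.92, 9.12 and 9.13 with triptolide, a difference of -0.48 ± 0.09. Col12a1, a fibril-associated collagen, differed by -0.61 ± 0.13, but by -0.30 against triptolide 1 alone. Myrf, a membrane-bound transcription factor, and Pde4b, a phosphodiesterase that breaks down cyclic AMP, differed by -0.46 ± 0.10 and -0.61 ± 0.13, and by -0.46 and -0.55 against triptolide 1 alone.

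Among genes that lay higher, the smallest p belonged to Clca3b, Gp2, Slc25a54, Slc11a2 and Myb, and all 5 held. Clca3b, of the family of chloride channel accessory proteins, read 8.53, 9.29 and 7.75 with the combination, against 7.33, 7.04 and 7.06 with triptolide. The difference was 1.38 ± 0.30 (unadjusted p = 0.000739), and the same 1.38 without combination 1. Gp2, a glycoprotein of secretory and M cells, read 8.93, 9.60 and 8.26 with the combination, against 8.13, 7.01 and 7.36 with triptolide, a difference of 1.43 ± 0.32. The lowest combination array was combination 3 for both genes, and for Gp2 it lay close to triptolide 1, so that the difference against triptolide 1 alone was 0.80. Slc11a2, the iron transporter DMT1, read 10.23, 10.24 and 10.30 with the combination, against 9.98, 9.93 and 9.88 with triptolide, a small but even difference of 0.33 ± 0.08. Slc25a54, a mitochondrial carrier, differed by 0.42 ± 0.10. Myb, a transcription factor of blood progenitors, read 9.93, 9.71 and 9.85 with the combination, against 9.58, 9.28 and 9.29 with triptolide. It differed by 0.45 ± 0.11, but by 0.25 against triptolide 1 alone.

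Plasma cell genes, which mark antibody secretion, lay higher in 13 of 15. There were 8 at an unadjusted p under 0.05, against 3.48% of all genes, 6 with no overlap, against 8.32%, and 5 that held. The list level was 0.34, 0.36 and 0.33 on combination 1, 2 and 3, against 0.22, -0.07 and -0.07 on triptolide 1, 2 and 3. The combination arrays were even and above all triptolide arrays, and triptolide 1 was the nearest. Tnfrsf17, the plasma cell survival receptor BCMA, read 7.94, 7.98 and 7.94 with the combination, against 7.70, 7.69 and 7.62 with triptolide. It differed by 0.28 ± 0.08, and by 0.25 against triptolide 1 alone. Igha, the constant region of immunoglobulin A, read 11.61, 11.32 and 11.86 with the combination, against 11.14, 10.44 and 11.03 with triptolide, a difference of 0.73 ± 0.25. Irf4, a transcription factor of plasma cells, differed by 0.40 ± 0.13 and Derl3, of protein export from the endoplasmic reticulum, by 0.37 ± 0.12, but by 0.13 and 0.12 against triptolide 1 alone. The median of the list was 0.33, 0.29 without combination 1 and 0.11 against triptolide 1 alone. B cell genes lay higher in 15 of 16 with a median of 0.42, but only Cd79b was under the threshold, against 3.48% of all genes. None was under it without combination 1, where the median was 0.18. Against triptolide 1 alone the B cell median was 0.04.

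Genes of airway secretory cells lay higher in 16 of 20, with 6 at an unadjusted p under 0.05, against 3.48% of all genes. Of these 3 held, which were Gp2, Tff2 and Muc5ac, a share near the 46.2% of all higher genes under the threshold. Tff2, a trefoil peptide secreted with mucus, read 8.91, 9.53 and 8.33 with the combination, against 8.39, 7.63 and 7.90 with triptolide, a difference of 0.95 ± 0.26, or 0.54 against triptolide 1 alone. Muc5ac, a gel-forming mucin, read 8.68, 9.20 and 8.31 with the combination, against 8.59, 7.78 and 7.94 with triptolide, a difference of 0.63 ± 0.24, or 0.14 against triptolide 1 alone. In both, combination 2 was highest and combination 3 lay under triptolide 1. Agr2, a disulfide isomerase needed for mucin, differed by 1.09 ± 0.44 and missed the threshold without combination 1 (unadjusted p = 0.0694). The list median was 0.45, 0.52 without combination 1, 0.20 without combination 2 and 0.06 against triptolide 1 alone.

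**Figure D3:**
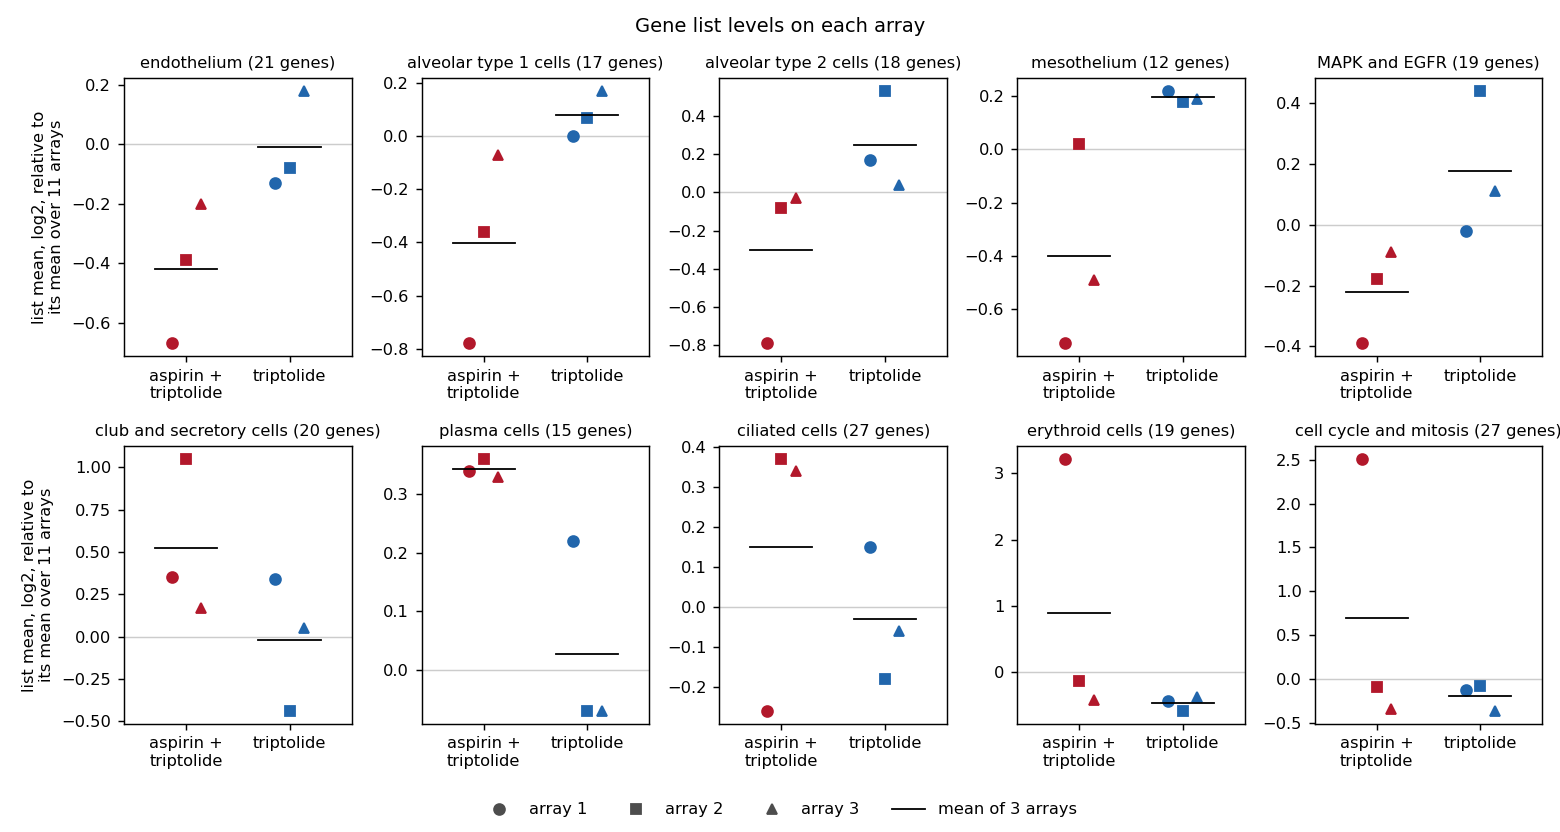
Mean log2 level of 10 gene lists on each combination array (red, left) and triptolide array (blue, right), relative to the list's mean over all 11 arrays; symbols give the array number, lines the mean of 3 arrays, and panels have their own axes. Endothelial, type 1, type 2, mesothelial and MAPK genes lie lower on every combination array and plasma cell genes higher. Erythroid and cell cycle genes are by far highest on combination 1.

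Blood formation and cell division followed another pattern, that of combination 1. All 27 measured genes of the cell cycle, all 23 of DNA replication, all 19 erythroid genes and all 13 of heme synthesis lay higher with the combination, with medians of 0.90, 0.65, 1.42 and 0.54. None of the genes in these 4 lists reached an unadjusted p under 0.05. Without combination 1 the medians were 0.00, -0.05, 0.21 and -0.09, with 2 erythroid genes higher under the threshold, against 3.75% of all genes. The erythroid list differed from the other 3: without combination 1, 18 of its 19 genes stayed higher. In the cell cycle, replication and heme lists 12 of 27, 8 of 23 and 5 of 13 did. With all arrays 6 erythroid genes had no overlap between the groups, against 8.32% of all genes. The erythroid level was 3.22, -0.15 and -0.43 on combination 1, 2 and 3, against -0.45, -0.60 and -0.39 on triptolide 1, 2 and 3. Mki67, the antigen of dividing cells, read 12.60, 9.08 and 8.26 with the combination, against 8.88, 8.96 and 8.18 with triptolide. Combination 1 alone was high, and the difference was 1.31 ± 0.86 with it and 0.00 without it. Cldn13, a claudin of mouse erythroid precursors, read 11.45, 7.22 and 7.13 with the combination, against 6.89, 6.75 and 6.92 with triptolide. Epor, the erythropoietin receptor, and Ermap, an erythroid membrane protein, were the 2 genes under the threshold without combination 1, at 0.25 (unadjusted p = 0.0164) and 0.34 (unadjusted p = 0.0324). Of 10 genes of blood progenitors, 4 were higher at an unadjusted p under 0.05, against 3.48% of all genes, and 1 was lower, against 10.1%. The lower gene was Kit, the receptor for stem cell factor, at -0.36 with all arrays and -0.32 without combination 1. Myb, described above, differed by 0.40 without combination 1. Ctsg, a granule protease of myeloid precursors, read 7.74, 6.92 and 7.04 with the combination, against 6.81, 6.51 and 6.80 with triptolide. Its difference of 0.53 ± 0.18 was 0.27 without combination 1. The list median of 0.37 was 0.13 without combination 1 and 0.22 against triptolide 1 alone.

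Promoters of mitotic genes often carry the CCAAT box of the factor NF-Y and the cell cycle homology element with the letters TTTGAA, and 2, chosen after their values were seen, are shown with both in capitals, on either strand. They are the last 120 bases before the start in RefSeq (GRCm38.p6), for Cdk1 at chr10:69352913-69353032 and for Cdc20 at chr4:118437344-118437463, both on the minus strand and written in the direction of the gene.
Cdk1: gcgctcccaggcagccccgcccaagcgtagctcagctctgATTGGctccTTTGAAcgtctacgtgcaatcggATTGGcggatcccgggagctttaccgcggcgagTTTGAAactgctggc
Cdc20: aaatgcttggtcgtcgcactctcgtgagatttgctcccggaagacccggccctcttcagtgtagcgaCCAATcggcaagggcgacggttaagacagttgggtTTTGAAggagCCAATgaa
In the 250 bases before the start, 17 of the 22 cell cycle genes with a promoter in the table held CCAAT, against 33.8% of all promoters, and 7 held TTTGAA, against 16.0%. Here too genes were counted by any of their promoters and the percentages by single promoters, so they are not like for like. Nothing about either factor follows from these letters. Cdk1, the kinase that drives mitosis, read 11.01, 8.35 and 8.04 with the combination, against 8.27, 8.51 and 7.91 with triptolide. Cdc20, which activates the anaphase complex, read 9.88, 8.06 and 7.98 with the combination, against a range of 7.91 to 8.15 with triptolide. Both were high on combination 1 and lay within the triptolide arrays on combination 2 and 3, and their differences without combination 1 were -0.03 and 0.00.

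Ciliated cell genes showed the reverse dependence. With all arrays 26 of 27 lay higher, none at an unadjusted p under 0.05, and the median was 0.18. Without combination 1, 18 were higher under the threshold, against 3.75% of all genes, and the median was 0.39. The list stood at -0.26, 0.37 and 0.34 on combination 1, 2 and 3, against 0.15, -0.18 and -0.06 on triptolide 1, 2 and 3. Combination 1 was thus the lowest of the 6 arrays and the other 2 the highest. Dnah5, a motor protein of the cilium's outer arm, read 9.44, 10.45 and 9.98 with the combination, against 9.86, 9.35 and 9.47 with triptolide, and differed by 0.40 ± 0.24 with all arrays and by 0.66 without combination 1 (unadjusted p = 0.00972). Ccdc78, of the structures that make centrioles for multiciliated cells, differed by 0.23 ± 0.12 with all arrays and 0.37 without combination 1. Against triptolide 1 alone the list median was 0.00, while triptolide 2 and 3 were the arrays that lay lower. Among genes picked for the smallest p without combination 1, after their values were seen, were further cilia genes: Lrriq1 at 0.67, Ccdc17 at 0.61, Dnah3, an inner arm dynein, at 0.57 and Dnah1 at 0.46. The fatty acid elongase Elovl6, in the same selection, read 9.13, 9.52 and 9.53 with the combination, against 9.08, 9.08 and 9.07 with triptolide, and differed by 0.45 without combination 1 and by 0.31 with all arrays and against triptolide 1 alone.

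**Figure D4:**
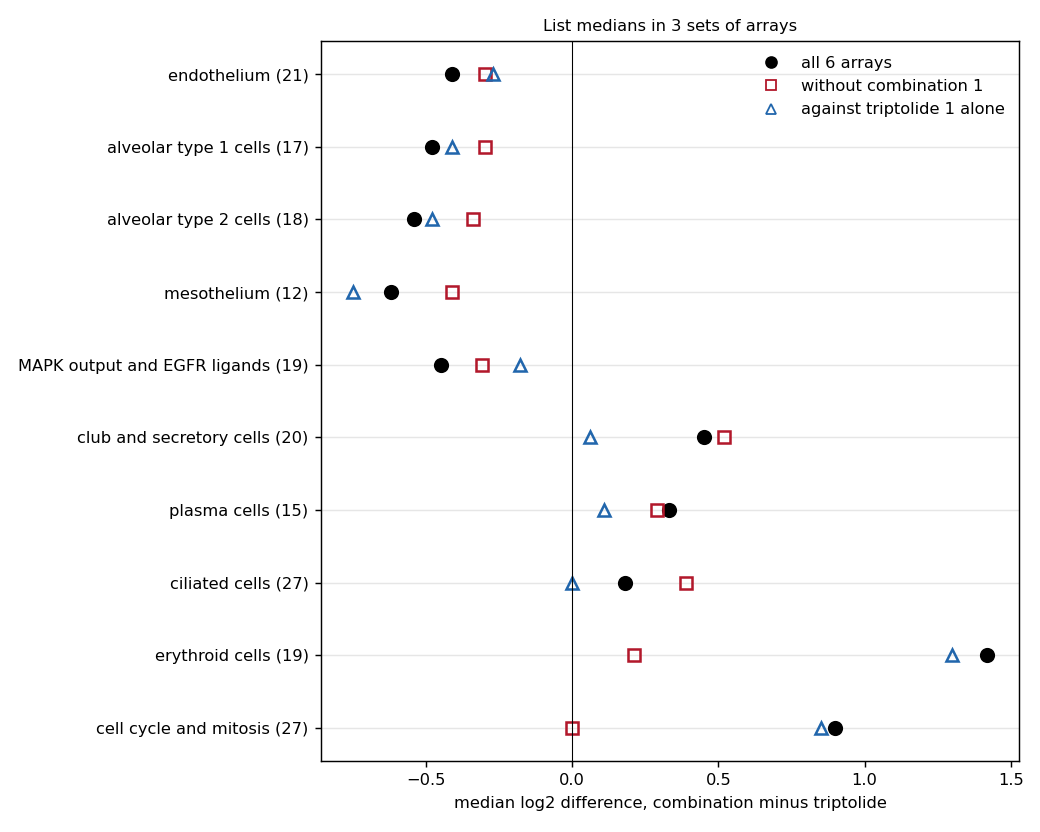
Median log2 difference, combination minus triptolide, of the members of 10 gene lists (number of genes in brackets): filled circles use all 6 arrays, squares leave out combination 1 and triangles use triptolide 1 as the only triptolide array. Endothelial, type 1, type 2 and mesothelial medians stay between -0.75 and -0.27 in all 3, secretory and ciliated medians are near 0 in the third, and erythroid and cell cycle medians are 0.21 and 0.00 without combination 1. The triangles keep combination 1, and no symbol leaves out combination 1 and triptolide 2 and 3 together.

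The lists closest to the drugs' own targets showed no common shift. Of 21 genes of prostanoid synthesis and reception, 11 were higher and 10 lower, 0 and 3 of them at an unadjusted p under 0.05, with a median of 0.03. The 3 lower genes of 21 are a share near the 10.1% of all genes. The 3 were Slco2a1, the prostaglandin transporter, at -0.53, Hpgd, which inactivates prostaglandins, at -0.49, and the prostaglandin E synthase Ptges at -0.35. Slco2a1 (unadjusted p = 0.00655) and Hpgd (unadjusted p = 0.0289) held without combination 1. Ptgs2, the inducible cyclooxygenase, read 9.30, 10.06 and 10.11 with the combination, against 10.43, 10.25 and 10.37 with triptolide, and differed by -0.53 ± 0.29 (unadjusted p = 0.0994). Its combination arrays all lay below the triptolide arrays, with combination 1 far below, and the difference without combination 1 was -0.27. The 14 genes of TFIIH and RNA polymerase II were even, with 7 higher and 7 lower and a median of 0.00. Ercc3, the target of triptolide, read 10.25, 10.19 and 10.31 with the combination, against 10.31, 10.35 and 10.34 with triptolide, a difference of -0.08 ± 0.07.

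Of 26 NF-kB genes, 2 lay higher and 2 lower at an unadjusted p under 0.05, where 3.48% and 10.1% of all genes did, so the lower share was under that of all genes and the list as a whole showed no excess of lower genes. Higher were Tnf, the inflammatory cytokine, at 0.27 ± 0.09 and the neutrophil chemokine Cxcl2 at 0.37 ± 0.14. Lower were Rela, the p65 subunit, at -0.26 ± 0.11 and the adhesion molecule Icam1 at -0.44 ± 0.14, or -0.24 without combination 1. Against triptolide 1 alone Tnf, Cxcl2 and Rela differed by 0.10, 0.06 and -0.06, and Icam1 by -0.36. Heat shock chaperones were likewise split, 2 higher and 2 lower of 20 under the threshold, against 3.48% and 10.1% of all genes, with a median of 0.00. Hsph1 differed by 0.44 ± 0.16 and Hspb8, a small heat shock protein, by -0.64. Hspa1a, the inducible HSP70, read 9.41, 9.76 and 9.81 with the combination, against 9.55, 9.61 and 10.48 with triptolide, so that triptolide 3 alone was high. Myc, a growth-promoting transcription factor, read 10.81, 9.64 and 9.40 with the combination, against 9.61, 9.61 and 9.43 with triptolide, and differed by 0.40 ± 0.28 with combination 1 and -0.03 without it. Interferon-induced genes had a median of 0.08 over 25 members. Cardiac muscle genes lay lower in 18 of 18 with a median of -0.42, but triptolide 3 stood at a list level of 0.88 where the other 5 arrays lay between -0.25 and -0.10, and without triptolide 3 the median was -0.03.

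Whether aspirin differs in its effect with and without triptolide was tested as an interaction, the difference of combination minus triptolide from that of aspirin minus untreated control. Limma called 0 of the autosomal genes at an adjusted p under 0.05, or 0%, with a smallest adjusted p of 0.264, and 646 had an unadjusted p under 0.05, with 216 positive and 430 negative. That is fewer than the 958 counted if p were uniform, and with the Y-linked mean as a covariate there were 226. The genes named next are therefore a description of the smallest p. Asic2, a proton-gated sodium channel, had the smallest p. It read 7.91, 7.89 and 7.82 with the combination, against 8.09, 8.41 and 8.58 with triptolide, and 8.62, 8.61 and 8.73 with aspirin, against 7.84 and 7.87 in untreated control. It was lower where aspirin was added to triptolide and higher where aspirin was given alone, and the interaction was -1.28 ± 0.17 (unadjusted p = 1.32e-05). The arrays high in Asic2 were those high in the Y-linked genes, which stood between 8.88 and 9.09 with aspirin and at 5.94 and 5.81 in untreated control. Penk, the precursor of the enkephalin peptides, followed the same arrays: it read 8.75, 9.31 and 9.64 with the combination, against 9.49, 10.52 and 11.08 with triptolide, and 10.81, 10.30 and 10.79 with aspirin, against 9.22 and 8.74 in untreated control. Once the mean of the Y-linked genes entered the fit as a covariate, the interaction was -0.64 for Asic2 (unadjusted p = 0.0496) and -0.51 for Penk (unadjusted p = 0.554), in place of -2.78 ± 0.54 for Penk. Within groups that mean varied mainly among the triptolide arrays, from 6.55 on triptolide 1 to 9.36 on triptolide 2. The covariate's slope thus rests largely on triptolide 1, and what the sex-linked difference contributes was not tested. Without triptolide 1, Asic2 and Penk passed the interaction test, at -1.42 for Asic2 (limma adjusted p = 0.00458) and -3.22 for Penk (limma adjusted p = 0.0473). With that array left out, every triptolide and aspirin array is high in Y-linked genes and every combination and untreated control array is low, so there the interaction and the sex-linked division cannot be told apart.

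Folh1, a folate-releasing peptidase, Pla1a, a phospholipase, and Slc47a1, a transporter that exports drugs and cations, had interactions of -1.15 ± 0.23, -1.07 ± 0.22 and -0.81 ± 0.18, and -0.11, -0.42 and -0.25 with the covariate. In the positive direction the smallest p were those of Hepacam2, Adam26b, Gas5, Mgl2 and Ifi203. Hepacam2, an adhesion protein of secretory cells, read 8.22, 8.15 and 7.86 with the combination, against 7.84, 7.41 and 7.57 with triptolide, and had an interaction of 0.90 ± 0.20, or 0.14 with the covariate. Gas5, the host RNA of many small nucleolar RNAs, read 11.05, 10.92 and 10.55 with the combination, against 10.37, 10.46 and 10.37 with triptolide, and 9.92, 10.16 and 10.43 with aspirin, against 10.70 and 10.68 in untreated control. Its interaction of 0.96 ± 0.22 was 0.91 with the covariate (unadjusted p = 0.089). Gas5 was lower on the arrays high in the Y-linked genes than on the others, except that triptolide 1 also read low. The covariate's slope rests largely on triptolide 1, and what the sex-linked difference contributes to Gas5 was not tested. For the lectin Mgl2 and the interferon-inducible Ifi203 the combination and triptolide arrays overlapped, with a difference of -0.01 for both, while aspirin alone differed from untreated control by -0.90 and -0.52. Across the autosomal genes the differences of aspirin with and without triptolide, which share no array, had a Pearson correlation of 0.181, and of 0.219 without combination 1, given as a description since genes are not independent.

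**Figure D5:**
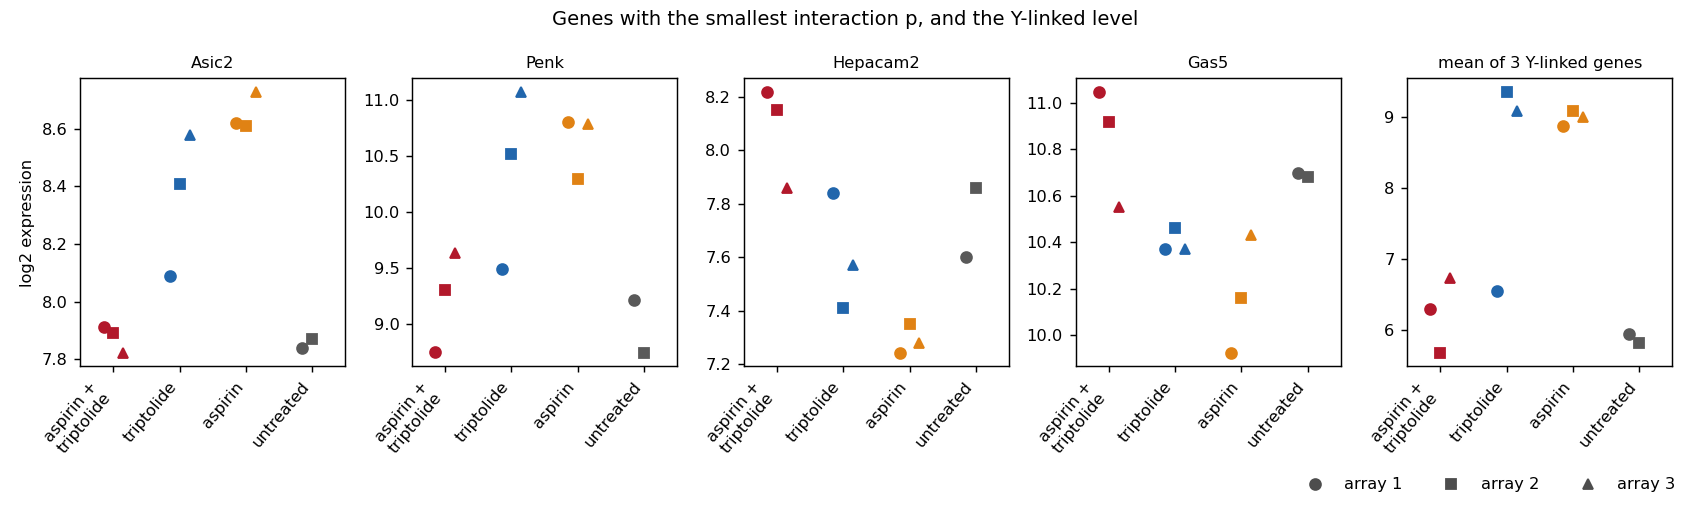
Log2 expression of Asic2, Penk, Hepacam2 and Gas5, and the mean of the Y-linked genes Kdm5d, Uty and Eif2s3y, on each of the 11 arrays by group; symbols give the array number and panels have their own axes. Asic2 and Penk are high on the aspirin arrays and on triptolide 2 and 3, the arrays where the Y-linked mean is between 8.88 and 9.36, while Gas5 does not follow that division.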

How the data were processed

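Lung RNA was hybridised to Affymetrix arrays, 11 in all, and the deposited values are log2 expression, made with RMA in Partek, per the submitters' processing notes. The sources used here give no further detail of normalization, filters, detection calls or build. Genes were named from the platform's probe table, keeping probes with exactly 1 symbol and the highest-mean row of each, and chromosomes, names and promoters came from RefSeq (GRCm38.p6). A limma model (version 3.58.1, lmFit and eBayes, under R 4.3.3) took in all 11 arrays in 4 groups, with Benjamini-Hochberg adjustment over 19938 genes at a threshold of 0.05 for each contrast. The fit was tested on simulated data. The number of arrays limits the precision. Genes named were the 5 smallest p in each direction, up to 4 per gene list, a few drug target genes and the 5 smallest interaction p in each direction. The 52 gene lists, written from general knowledge with 867 symbols, of which 818 matched, are described by counts and medians. Members and lists were chosen with earlier results of these data known. Cdk1, Cdc20, Egfl7, Robo4, Hbegf, Slco2a1, Hpgd, Ptges, Icam1, Hspb8 and Kit lie outside this rule and were named after their values were seen. Lrriq1, Ccdc17, Dnah3, Dnah1 and Elovl6 came from an added selection, the smallest p without combination 1. A few genes are not reported here. The alternatives were other scalings, filters, models, a covariate and leaving out each array.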

Additional observations from a re-analysis of the deposited data

How the results depend on the processing

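The count of 0 genes at the adjusted threshold was unchanged under 19 of 22 alternatives, and over them the smallest adjusted p lay between 0.000533 and 1. Leaving out 1 array gave 0 to 24 called genes, 181 to 1246 higher and 859 to 3080 lower genes at unadjusted p, 104 to 807 higher and 424 to 1375 lower genes kept without combination 1, 0 to 1 gene holding at the adjusted threshold and 0 to 2 interaction genes. Without combination 3 there were 24 called genes, 1198 higher, 3080 lower and 1 interaction gene (Snord35b). Without triptolide 1 there was 1 called gene, Fabp1, which also held, with 1246 higher, 807 and 1375 kept, and 2 interaction genes, Asic2 and Penk. Without triptolide 2 there were 181 higher and 859 lower genes, with 104 and 424 kept. Without triptolide 3 there were 1163 lower genes, with 494 kept, and without combination 1 there were 955 lower.

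Array weights called 4785 genes, 1 holding (Igkv9-120) and 2046 in the interaction, with 3198 higher and 4316 lower at unadjusted p and 1665 and 2520 kept. That fit gave aspirin 3 a weight of 43.46 and combination 1 a weight of 0.11, and its estimation stopped before its tolerance was met. The Y-linked level as a covariate left 31 higher and 56 lower genes, with 19 and 34 kept. Leaving out both triptolide 2 and 3 left 47 and 101, with 39 and 66 kept. Dropping the lowest 25% of genes left 352 higher and 144 kept, and fitting only the 6 arrays left 1003 lower and 456 kept. With a replicate block there were 1110 higher genes, 777 and 1194 were kept and the smallest adjusted p was 0.234, so it changed no call. The deviations of same-numbered combination and triptolide arrays from their group means correlated at 0.09, -0.02 and 0.02. Whether same-numbered arrays share more than a number was not tested.

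Signs turned for Ercc3 at 0.01, Mgl2 at 0.05 and Ifi203 at 0.09 under quantile normalization, and for Mgl2 at 0.24 and Ifi203 at 0.08 with array weights. With the covariate they turned for Muc5ac at -0.08, Agr2 at -0.11, Dnah5 at -0.04, Hspa1a at 0.07 and Folh1 at 0.10, and Dnaaf1 stood at 0. Without triptolide 2 and 3, Hspa1a stood at 0.11 and Folh1 at 0.04. Over the fits that leave out 1 array, Hspa1a ranged from -0.39 to 0.08, Mki67 from 0 to 2.17, Myc from -0.03 to 0.67, Mgl2 from -0.17 to 0.17 and Ifi203 from -0.08 to 0.03. Signs turned for Mgl2 at 0.04 and Ifi203 at 0 (triptolide 1), Hspa1a at 0.08 (triptolide 3), Mki67 at 0, Myc at -0.03, Mgl2 at 0.17 and Ifi203 at 0.03 (combination 1), and Ifi203 at 0.02 (combination 3). The cause was not tested for any of these. Counts at unadjusted p and of kept genes were chosen after seeing the data, since no gene passed the adjusted threshold.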

Other observations

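Of the genes called only when combination 3 was left out, which were looked at after their values were seen, Clca3b, of the chloride channel accessory family, differed by 1.77 (limma adjusted p = 0.0322) and Gprc5a, the orphan receptor of lung epithelium, by -1.03 (limma adjusted p = 0.0452). With all arrays both had smaller differences, 1.38 and -0.76, and neither passed the test. Fabp1, a fatty acid binding protein, read 7.08, 7.28 and 7.29 with the combination, against 7.48, 8.49 and 8.14 with triptolide. It differed by -0.82 ± 0.20 with all arrays, by -0.26 against triptolide 1 alone, and by -1.10 without triptolide 1 (limma adjusted p = 0.0326).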
